A study of Mus musculus with 9 samples.

Results

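MHC class I and antigen processing was described here in mouse gastrocnemius, a calf muscle, through 10 genes of 55487 in the count table. They are the heavy chain genes H2-K1, H2-D1, H2-Q4, H2-Q6 and H2-Q7, the light chain gene B2m, the peptide transport and loading genes Tap1 and Tapbp, and the immunoproteasome genes Psmb8 and Psmb9. The genes were taken by symbol, and all 10 passed the filter on low counts that left 14851 genes for testing. H2-Q6 and H2-Q7 were picked because they fell on unloading, so their values are a description and carry no test in any comparison, and counts of calls are over the other 8 genes.

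Polyadenylated RNA was sequenced from 4 Control libraries (conventional cages), 2 Unloading libraries (10 days of hindlimb unloading, a tail suspension that takes the weight off the hind limbs) and 3 Reloading libraries (10 days of unloading, then 1 day of normal cage activity). All groups were wild-type C57BL/6 mice by the labels, and the study's text names the substrain C57BL/6J for this experiment. The mice were male by the labels, although the study's methods name female mice for the unloading procedure. The age was not given in the sources used here. The labels do not say that replicates were separate animals, so p-values measure only the spread between these libraries.

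MHC class I molecules sit on the surface of nearly all nucleated cells and present short peptides from proteins made inside the cell to CD8 T cells. The proteasome cuts the proteins, with altered cutting when the interferon-inducible subunits Psmb8 and Psmb9 replace the constitutive ones. Tap1 with Tap2 pumps the peptides into the endoplasmic reticulum, and Tapbp (tapasin) holds the empty heavy chain and B2m there until a peptide binds. Interferons raise most of these genes, through transcription factors such as Irf1 and through Nlrc5, the class I transactivator. Resting muscle fibres are known for low class I levels, while endothelial and immune cells carry more.

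The promoters of the heavy chains and of B2m hold short elements known from work on class I regulation. Whether these elements have a part in the levels of the genes in these libraries was not tested. The sequences are RefSeq windows of build GRCm38.p6, read 5′ to 3′ on the strand of the gene. Each stretch was cut around the elements and lies upstream of the most downstream RefSeq start site of that gene. Capitals mark matches on either strand to a kappaB-type motif (GGGA, any base, T, any 2 bases, CC), an interferon response core (TTTCNNTTC), its longer form with 1 more T before the last C, the X2-type motif TGACG and the CCAAT box. The positions are chr17:34000334-34000463 on the minus strand for H2-K1, and on the plus strand chr17:35262918-35263049 for H2-D1, chr17:35379438-35379570 for H2-Q4, chr17:35424672-35424803 for H2-Q6, chr17:35439017-35439147 for H2-Q7 and chr2:122147528-122147643 for B2m.
H2-K1: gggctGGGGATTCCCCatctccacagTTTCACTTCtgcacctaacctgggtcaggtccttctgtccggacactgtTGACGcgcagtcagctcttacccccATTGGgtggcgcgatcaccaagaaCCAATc
H2-D1: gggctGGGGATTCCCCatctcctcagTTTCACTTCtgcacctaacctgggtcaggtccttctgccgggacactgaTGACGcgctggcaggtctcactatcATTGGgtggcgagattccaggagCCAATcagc
H2-Q4: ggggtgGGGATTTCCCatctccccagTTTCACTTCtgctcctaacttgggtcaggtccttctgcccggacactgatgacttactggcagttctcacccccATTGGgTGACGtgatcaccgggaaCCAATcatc
H2-Q6: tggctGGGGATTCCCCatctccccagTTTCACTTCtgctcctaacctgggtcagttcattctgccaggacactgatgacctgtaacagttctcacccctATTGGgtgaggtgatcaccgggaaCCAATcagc
H2-Q7: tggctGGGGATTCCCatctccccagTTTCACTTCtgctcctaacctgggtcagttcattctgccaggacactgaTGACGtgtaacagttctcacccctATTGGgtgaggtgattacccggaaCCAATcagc
B2m: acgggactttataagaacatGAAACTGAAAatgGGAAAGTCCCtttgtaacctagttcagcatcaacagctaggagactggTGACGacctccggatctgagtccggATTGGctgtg

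The 5 heavy chain windows hold the kappaB-type match, the interferon response core and both CCAAT boxes in the same order, and B2m holds its interferon-type element upstream of the kappaB-type one. The interferon response core was found in 5 of the 10 members, the 5 heavy chains, and in 7.52% of all 32851 RefSeq windows of 300 bases. Its longer form was found only in B2m among the members and in 3.44% of windows. A kappaB-type match was found in 6 of 10 members, the heavy chains and B2m, against 4.16% of windows. TGACG was in 7 of 10 members against 20.8% of windows, and CCAAT or its reverse in 9 of 10 against 37.4%. The Tap1 and Psmb9 matches to both motifs are the same bases between their start sites, counted for each gene. The heavy chain windows are also much alike, so the members are not independent windows. TGACG lies before the first CCAAT box in H2-K1, H2-D1 and H2-Q7 and after it in H2-Q4, and the H2-Q6 window has none. The windows of Tap1, Tapbp, Psmb8 and Psmb9 hold neither interferon motif nor the kappaB motif, which says only that these letters are not there. The start sites of Tap1 and Psmb9 point away from each other with 225 bases between them in RefSeq, and Psmb9, Tap1 and Psmb8 lie within 19468 bases of chromosome 17.

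One Control library stood apart in these genes, and every comparison with Control was therefore also fitted without it. Control 3 had the highest CPM (counts per 1000000, TMM-scaled) of the 9 libraries in all 10 members, against 7.69% of all tested genes. Its level was between 1.42 times (Tapbp) and 5.68 times (Tap1) the mean of the other 3 Control libraries, and reached 1.5 times in 9 of the 10. Genes induced by interferon gamma moved with it. In Control 3 all 21 tested genes of a list of interferon-gamma GTPases and chemokines reached 1.5 times the mean of the other Control libraries, with a median of 4.43 times. Only 19 of them passed the filter on low counts without Control 3, and the others do not count as support. In type I interferon genes 21 of 29 reached 1.5 times, in class II presentation genes 8 of 9, and in macrophage and dendritic cell markers 3 of 15. Of the type I genes only 26 passed the filter without Control 3, so the 21 may include genes that entered through that library. Of the endothelial markers 0 of 11 did, and of the muscle fibre markers 0 of 11. Among all 14844 tested genes with a value for this ratio, 588 reached 1.5 times. Ifng itself, the gene of interferon gamma, had 0 counts in every library, which with 14684352 read pairs in Control 3 allows up to 3 counts. The cause of the high class I level of Control 3 was not tested.

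**Figure D1:**
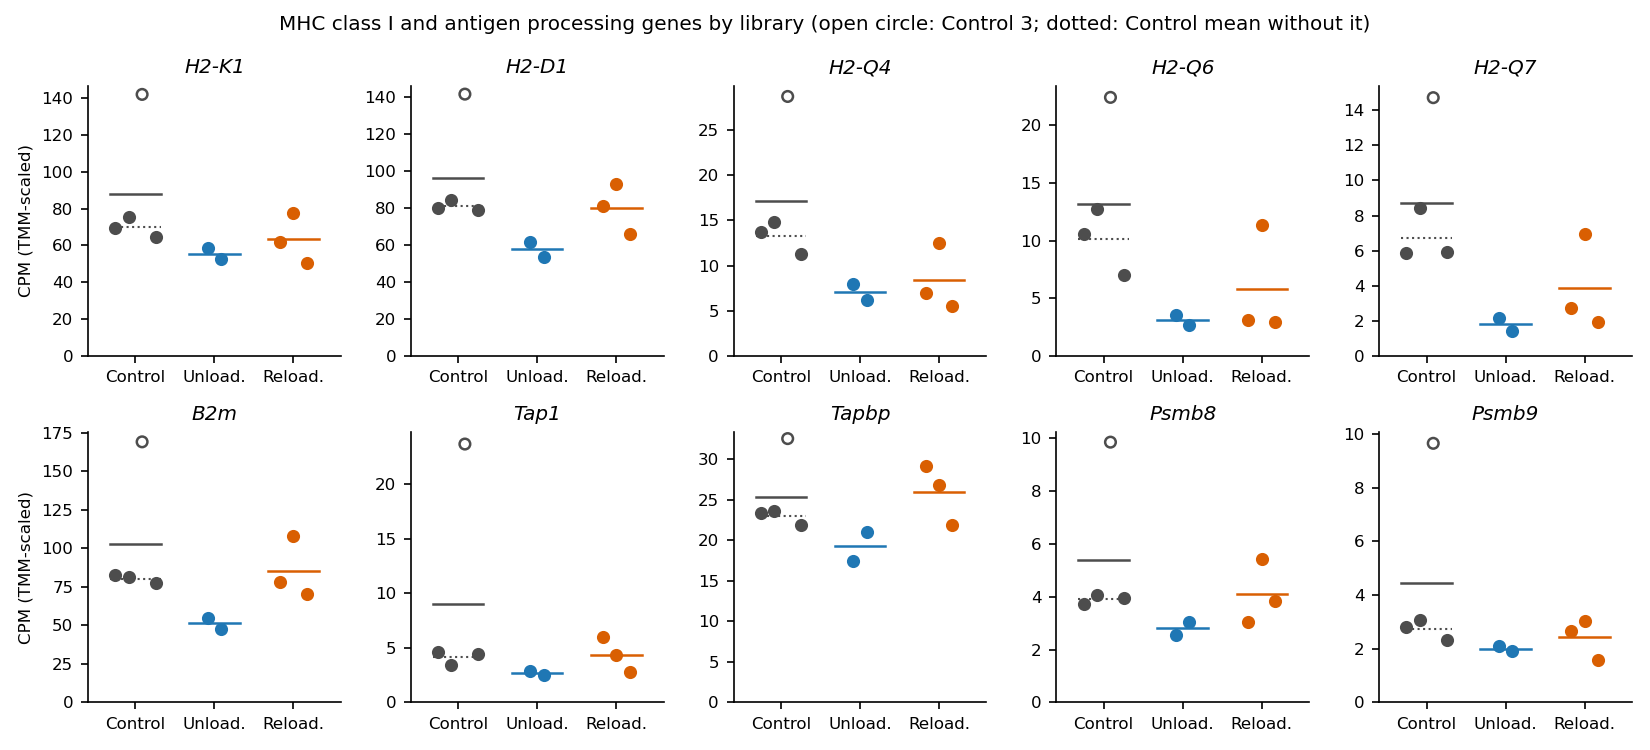
CPM (counts per 1000000, TMM-scaled) of the 10 genes in each of the 9 libraries, with 1 panel per gene and its own axis from 0. Points are libraries, the solid line is the group mean, the open circle is Control 3 and the dotted line is the Control mean without it. Control 3 is the highest point in all 10 panels. Both Unloading points lie below every Control point in the 8 genes not picked for a fall on unloading, as in 16.6% of all tested genes. H2-Q6 and H2-Q7 show the same but were picked for their fall.

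The class Ia heavy chains H2-K1 and H2-D1, which present peptides to CD8 T cells, were lowest on average after unloading. H2-K1 (chr17:33996017-34000347, minus strand) was 69.6, 75.4, 142 and 64.7 CPM in Control 1 to 4, 58.5 and 52.6 in Unloading 1 and 2, and 61.7, 77.7 and 50.7 in Reloading 1 to 3. H2-D1 (chr17:35262730-35267499, plus strand) was 80.0, 84.2, 142 and 78.9 CPM in Control, 61.7 and 53.8 in Unloading, and 81.0, 93.1 and 66.0 in Reloading. For both genes each Unloading library lay below each Control library, while Reloading overlapped Control. Per kilobase of all annotated exon bases (2579 for H2-D1, 2938 for H2-K1), H2-D1 was above H2-K1 in all 9 libraries. In Control it was 37.3 ± 11.8 against 29.9 ± 12.4 CPM per kb (SD, n = 4). The longest protein-coding transcripts have 2102 and 1619 bases, so this order depends on the length used. By the quasi-likelihood test of edgeR, whose log2 fold changes are given here ± SE, H2-D1 fell by 0.74 ± 0.20 on unloading (adjusted p = 0.0310), and by 0.49 ± 0.12 without Control 3 (adjusted p = 0.0271). H2-K1 did not pass, at -0.67 ± 0.25 (adjusted p = 0.104) and -0.33 ± 0.14 (adjusted p = 0.163) without Control 3.

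The class Ib heavy chains of the Q region, which vary less between strains than the class Ia genes, showed wider ranges. H2-Q4 (chr17:35379617-35385290) was 13.8, 14.8, 28.7 and 11.3 CPM in Control 1 to 4, 8.01 and 6.17 in Unloading 1 and 2, and 7.01, 12.5 and 5.56 in Reloading 1 to 3. It fell on unloading by 1.31 ± 0.35 on the log2 scale (adjusted p = 0.0281), and by 0.92 ± 0.26 without Control 3 (adjusted p = 0.0449). In Reloading H2-Q4 was still below Control, with -1.06 ± 0.30 (adjusted p = 0.00988) and -0.68 ± 0.23 without Control 3 (adjusted p = 0.0258). Only Reloading 2 reached the Control range.

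H2-Q6 and H2-Q7, which encode the Qa-2 antigens, showed the same arrangement of libraries. H2-Q6 (chr17:35424850-35430055) was 10.6, 12.8, 22.4 and 7.04 CPM in Control, 3.52 and 2.68 in Unloading, and 3.14, 11.3 and 2.91 in Reloading. H2-Q7 (chr17:35439155-35443773) was 5.86, 8.46, 14.7 and 5.92 CPM in Control, 2.17 and 1.42 in Unloading, and 2.74, 6.94 and 1.92 in Reloading. Reloading 2 was at Control levels and the other 2 Reloading libraries were near Unloading. As a description, the log2 fold change of Unloading against Control was -2.13 for H2-Q6 and -2.34 for H2-Q7, and -1.73 and -1.95 without Control 3. Reloading against Unloading gave 0.92 for H2-Q6 and 1.13 for H2-Q7, and without Reloading 2 these became -0.02 and 0.39. The share of H2-Q6 in the counts of both genes lay between 53.4% (exact 95% interval 41.4 to 65.2, Reloading 1) and 65.3% (53.5 to 76.0, Unloading 2), so the balance of the pair did not move detectably at this depth. The intervals cover counting error only.

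The counts of these heavy chains share sequence between genes. Of the 50-base stretches of the reference transcript, 39.2% in H2-Q4, 35.0% in H2-Q6 and 34.9% in H2-Q7 also occur in a transcript of another gene, against 8.79% in H2-K1, 14.3% in H2-D1 and 0 in B2m and Psmb9. Pairs that mapped to several places or to several genes were not counted, so the split of counts among Q genes is uncertain. Exons of H2-Q4, Tapbp, Psmb8, Tap1 and Psmb9 also overlap exons of another gene over 19.1%, 29.0%, 14.7%, 3.87% and 5.79% of their bases, and the counting did not use strand.

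B2m, the light chain common to all class I molecules, had the highest level per kilobase of the 10 genes in each group, at 119 ± 51.6 CPM per kb in Control (SD, n = 4), 59.5 ± 5.56 in Unloading (n = 2) and 99.3 ± 23.1 in Reloading (n = 3). B2m (chr2:122147686-122153083) was 82.4, 81.5, 169 and 77.1 CPM in Control 1 to 4, 54.6 and 47.8 in Unloading 1 and 2, and 77.9, 108 and 70.3 in Reloading 1 to 3. The Unloading libraries were below all others, and the other 3 Control libraries lay within a narrow range of 80.4 ± 2.83 CPM (SD, n = 3). It fell on unloading by 1.01 ± 0.27 on the log2 scale (adjusted p = 0.0279), and by 0.65 ± 0.14 without Control 3 (adjusted p = 0.0158). From Unloading to Reloading it rose by 0.74 ± 0.28 (adjusted p = 0.0479), and by 0.73 ± 0.14 without Control 3 (adjusted p = 0.00102). This rise was not called without Reloading 1 or without Reloading 2. The lowest adjusted p of the 8 genes was then 0.0568 and 0.129. Reloading against Control gave -0.27 ± 0.23 (adjusted p = 0.357) with all libraries and 0.08 ± 0.12 (adjusted p = 0.636) without Control 3. B2m is the only member outside chromosome 17.

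The peptide transport and loading genes differed in how far Control 3 set their values. Tap1 (chr17:34187553-34197225), a subunit of the peptide pump, was 4.62, 3.40, 23.6 and 4.46 CPM in Control 1 to 4, 2.92 and 2.51 in Unloading 1 and 2, and 5.96, 4.34 and 2.78 in Reloading 1 to 3. Its log2 fold change on unloading was -1.80 ± 0.66 (adjusted p = 0.1000) with Control 3 and -0.61 ± 0.28 (adjusted p = 0.213) without it. Tapbp (chr17:33915899-33929292), which encodes tapasin, was 23.3, 23.6, 32.6 and 21.96 CPM in Control, 17.5 and 21.1 in Unloading, and 29.2, 26.8 and 21.8 in Reloading. Tapbp had the smallest fold change of the 10 on unloading, -0.40 ± 0.16 (adjusted p = 0.124), and -0.24 ± 0.13 without Control 3 (adjusted p = 0.282). Between Unloading and Reloading the Tapbp libraries did not overlap, with 0.42 ± 0.16 (adjusted p = 0.0555) and 0.41 ± 0.13 without Control 3 (adjusted p = 0.0197).

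The immunoproteasome genes were low in all groups except in Control 3. Psmb8 (chr17:34197721-34201454), the interferon-inducible counterpart of Psmb5, was 3.72, 4.06, 9.86 and 3.95 CPM in Control 1 to 4, 2.55 and 3.06 in Unloading 1 and 2, and 3.06, 5.42 and 3.84 in Reloading 1 to 3. Psmb9 (chr17:34181987-34187764), the counterpart of Psmb6, was 2.82, 3.07, 9.65 and 2.32 CPM in Control, 2.10 and 1.91 in Unloading, and 2.66, 3.04 and 1.59 in Reloading. The Control libraries other than Control 3 lay close together in both genes. Neither gene passed on unloading, with -0.97 ± 0.37 for Psmb8 (adjusted p = 0.106) and -1.21 ± 0.49 for Psmb9 (adjusted p = 0.130), and -0.47 ± 0.24 and -0.45 ± 0.29 without Control 3 (adjusted p = 0.271 and 0.382).

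Against the constitutive subunits they replace, Psmb8 and Psmb9 were again highest in Control 3. Psmb8 counted 4.56, 4.52, 11.3 and 4.38 read pairs per 100 of Psmb5 in Control 1 to 4, 3.21 and 3.45 in Unloading, and 3.96, 6.87 and 5.20 in Reloading. Psmb9 counted 2.51, 2.35, 8.04 and 1.94 per 100 of Psmb6 in Control, 2.07 and 1.61 in Unloading, and 2.48, 2.99 and 1.46 in Reloading. Psmb10, the third inducible subunit, gave another picture: 5.70, 6.18, 9.89 and 4.54 per 100 of Psmb7 in Control, 3.71 and 4.41 in Unloading, and 12.5, 11.1 and 9.55 in Reloading. The ratios are of counts and are not scaled for length, so they are read between libraries and not between genes. Psmb10 rose from Unloading to Reloading by a log2 fold change of 1.02 ± 0.22 (adjusted p = 0.00224), while Psmb7 fell by 0.39 ± 0.08 (adjusted p = 0.00195).

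**Figure D2:**
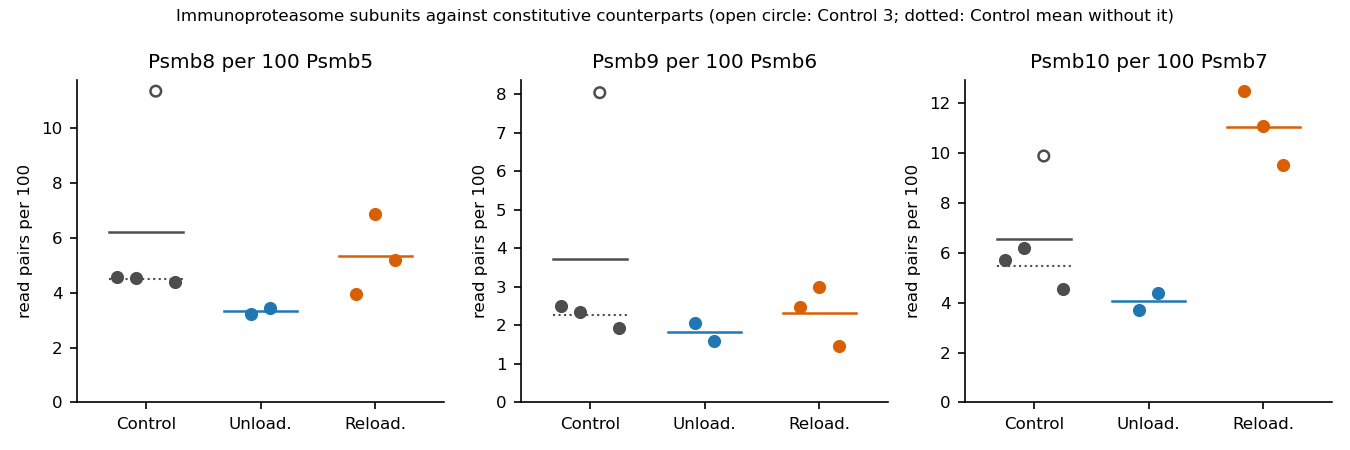
Read pairs of each inducible proteasome subunit per 100 read pairs of its constitutive counterpart, by library, in Control, Unloading and Reloading. Lines are group means, the open circle is Control 3 and the dotted line is the Control mean without it. For Psmb10 the Reloading libraries lie at 9.55 to 12.5, above the Unloading libraries at 3.71 and 4.41, while for Psmb9 the 2 groups overlap.

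Taken over the 8 genes that were not picked for it, unloading lowered 3 (B2m, H2-D1 and H2-Q4) and raised 0. Of all tested genes 5.50% were called lower in that comparison. Without Control 3 the same 3 genes were called, against 3.79% of all genes. Every Unloading library was below every Control library in all 8, and 16.6% of all tested genes show that. The median log2 fold change of the 8 was -0.99 with all libraries and -0.48 without Control 3, against -0.0038 and -0.0012 over all tested genes. All 8 had an unadjusted p under 0.05 with all libraries, and 5 without Control 3. Here and below, counts by unadjusted p stand without a share of all tested genes, so they have no background. With all libraries no call was left in DESeq2, where 7 of the 8 had an unadjusted p under 0.05, or in a robust edgeR fit, where 4 did, and without Control 3 those tools called 3 and 2. Without Unloading 1 or without Unloading 2 edgeR called 0 of the 8, with 4 and 5 at an unadjusted p under 0.05.

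The return of load was compared with Unloading and with Control, which share libraries, so each is given by its own values. Against Unloading, 1 of the 8 was higher (B2m), with 18.5% of all genes called higher, and without Control 3 there were 3 (B2m, Tapbp and H2-D1), with 17.9% of all genes called. H2-D1 gave 0.47 ± 0.21 (adjusted p = 0.0925) with all libraries and 0.47 ± 0.12 (adjusted p = 0.00711) without Control 3. The Reloading libraries were all above the Unloading libraries in 4 members (H2-D1, B2m, Tapbp and Psmb8, the last by less than the rounding of the values above), and 31.0% of all tested genes show that. Against Control, 1 of the 8 was lower (H2-Q4), with 21.3% of all genes called lower, and without Control 3 it was the same gene, with 20.1% of all genes called. A single call among 8 is no larger a share than that of all genes. Against Unloading, DESeq2 and the robust fit called 0 with all libraries, each with 1 at an unadjusted p under 0.05, and 3 without Control 3. The median log2 fold change of the 8 against Control was -0.45 with all libraries and 0.01 without Control 3. Without Control 3 the differences of H2-D1 (-0.03 ± 0.11), B2m, Tap1 (0.05 ± 0.24), Psmb8 (0.07 ± 0.21) and Psmb9 (-0.19 ± 0.26) from Control were each smaller than their SE, and those of H2-K1 (-0.15 ± 0.12), H2-Q4 and Tapbp (0.17 ± 0.11) were larger.

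**Figure D3:**
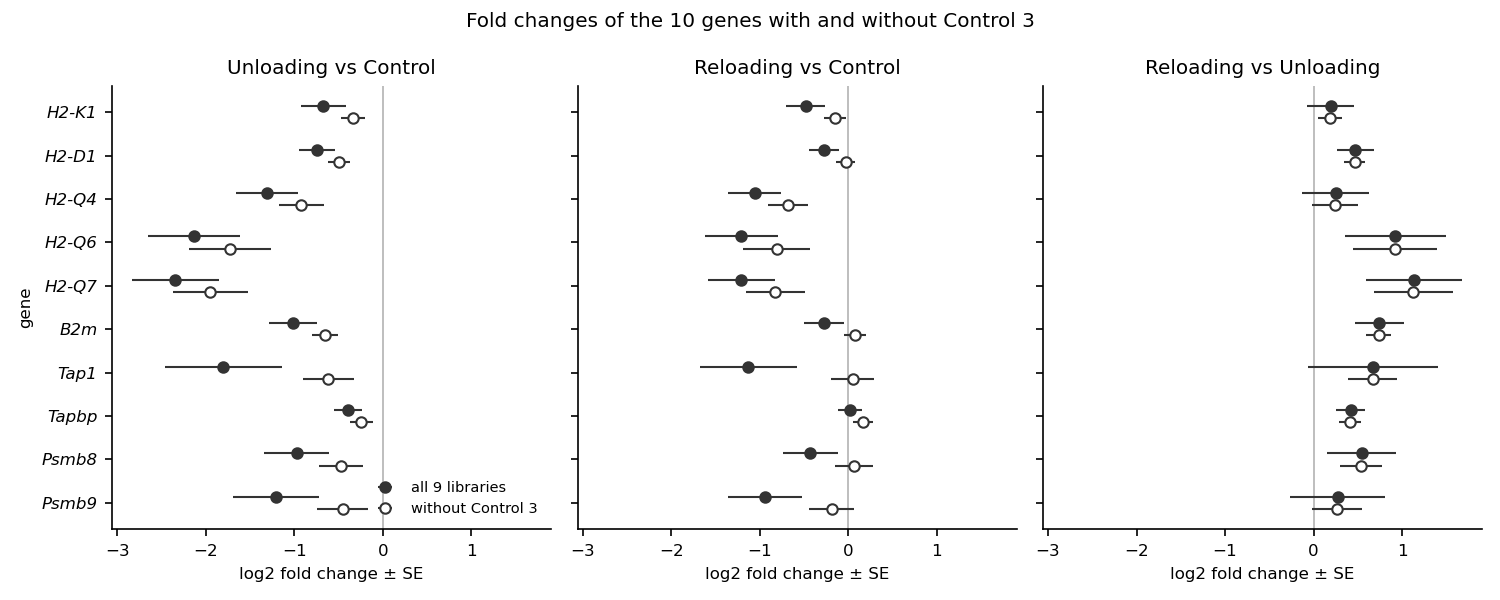
Log2 fold changes of the 10 genes in the 3 comparisons, with bars of 1 SE. Filled circles are fits of all 9 libraries and open circles fits without Control 3. On unloading the 8 genes not picked for their fall lie below 0 in both fits. H2-Q6 (-2.13) and H2-Q7 (-2.34) were picked because they fell, so their low place is a description only. Tap1 moves from -1.80 to -0.61 on unloading without Control 3.

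Among the Reloading libraries, Reloading 2 was the highest in 8 of the 10 members, and Reloading 1 in Tap1 and Tapbp. The mean centred log2 CPM of the 10 genes was -0.22, 0.31 and -0.57 in Reloading 1 to 3, 0.14, 0.23, 1.36 and 0.00 in Control 1 to 4, and -0.55 and -0.71 in Unloading 1 and 2. In this score, which includes the picked H2-Q6 and H2-Q7, the Reloading libraries thus spread over the range from Unloading to Control. The class Ib heavy chains alone were at -0.75, 0.56 and -1.05 in Reloading. B2m was at -0.04, 0.43 and -0.19 there, against -0.55 and -0.74 in Unloading. It was among the 4 members whose Reloading libraries were all above the Unloading libraries. Over the 9 libraries, which share the Control 3 value, Pearson's r between pairs of members had a median of 0.88 over 45 pairs (0.56 to 0.99). Over the 8 libraries without Control 3 the median was 0.72 (0.21 to 0.97), with H2-Q4 and H2-Q6 the closest pair and H2-Q4 and Tapbp the loosest.

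Other genes of the class I pathway were taken from 5 lists with 45 tested genes. On unloading 2 of the 45 were lower and 0 higher, with a median log2 fold change of -0.11, which is no larger a share than the 5.50% of all tested genes called lower. H2-Q5, a heavy chain gene next to the members, fell by 2.00 ± 0.45 (adjusted p = 0.0126), at 1.47, 2.40, 3.14 and 1.97 CPM in Control, 0.599 and 0.546 in Unloading, and 0.967, 1.95 and 0.596 in Reloading. The other was Ifngr2, a chain of the interferon gamma receptor, with -0.34 ± 0.08 (adjusted p = 0.0126). Both calls held without Control 3 (adjusted p = 0.0334 and 0.0364). The heavy chains of the T region did not pass, with -0.35 ± 0.20 for H2-T22 and -0.73 ± 0.32 for H2-T23 (adjusted p = 0.289 and 0.168), and -0.08 ± 0.12 and -0.25 ± 0.18 without Control 3. Psmb10, Psme1 and Psme2, subunits of the immunoproteasome and of its activator, had -0.71 ± 0.22, -0.50 ± 0.17 and -0.41 ± 0.13, with adjusted p of 0.0508, 0.0683 and 0.0517. Without Control 3 they had -0.47 ± 0.16, -0.33 ± 0.13 and -0.33 ± 0.12, with adjusted p of 0.101, 0.144 and 0.128.

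Chaperones of the endoplasmic reticulum that class I assembly also uses rose on reloading. Of 11 tested genes for transport, loading and trimming, 6 were higher and 1 lower against Unloading, with a median log2 fold change of 0.48, against 18.5% of all tested genes called higher. Calr and Canx, lectin chaperones of newly made glycoproteins, rose by 0.73 ± 0.10 (adjusted p = 7.23e-05) and 0.89 ± 0.10 (adjusted p = 9.96e-06). Pdia3, the disulfide isomerase of the loading complex, rose by 1.16 ± 0.09 (adjusted p = 5.16e-07), and Hspa5, the general chaperone BiP, by 1.50 ± 0.12 (adjusted p = 2.87e-07). Erap1, the peptide-trimming aminopeptidase of the reticulum, rose by 0.39 ± 0.11 (adjusted p = 0.0145), and Lnpep, the endosomal one, fell by 0.89 ± 0.16 (adjusted p = 0.000575). Most of these genes serve all secreted and membrane proteins. Tap2, the partner of Tap1 in the pump, had 0.48 ± 0.26 (adjusted p = 0.162), and 0.47 ± 0.16 without Control 3 (adjusted p = 0.0341).

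Of the 17 tested regulators of class I transcription, 6 were highest in Control 3. Nlrc5 was 2.14, 2.24, 12.9 and 1.97 CPM in Control 1 to 4, 1.95 and 1.53 in Unloading, and 3.30, 4.12 and 1.72 in Reloading. Outside Control 3 Nlrc5 lay between 1.53 and 4.12 CPM, and it did not pass in any comparison with or without Control 3 (adjusted p from 0.0621 to 0.661). On unloading Irf1 gave -0.51 ± 0.36 (adjusted p = 0.396), and 0.08 ± 0.17 without Control 3. In Reloading against Unloading, 2 of the 17 were higher and 1 lower, against 18.5% of all tested genes called higher. Irf9, part of the type I interferon factor, rose by 1.02 ± 0.30 (adjusted p = 0.0156). Rela, a subunit of NF-kappaB, rose by 0.60 ± 0.13 (adjusted p = 0.00247), and Jak2, a kinase of the interferon gamma receptor, fell by 0.45 ± 0.10 (adjusted p = 0.00314). On unloading 1 of the 17 was lower, Ifngr2, and 0 were higher, with 5.50% of all tested genes called lower.

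Of 9 tested class II presentation genes, which serve professional antigen-presenting cells, 5 were lower on unloading and 0 higher, with a median log2 fold change of -1.14, against 5.50% of all tested genes called lower. Without Control 3 there were 4 lower, with a median of -0.78, against 3.79%. Ciita, the class II transactivator, gave -0.87 ± 0.49 (adjusted p = 0.287), and H2-DMa, Ctss and Ifi30 did not pass either (adjusted p = 0.147, 0.501 and 0.796). H2-Eb1, a class II beta chain, was 15.9, 18.1, 30.8 and 10.5 CPM in Control, 6.96 and 7.65 in Unloading, and 11.3, 9.76 and 10.1 in Reloading. It fell by 1.38 ± 0.30 on the log2 scale (adjusted p = 0.0104), and H2-Ab1, another beta chain, by 1.30 ± 0.26 (adjusted p = 0.00679). The macrophage and dendritic cell markers had 0 called of 15 tested on unloading in edgeR, with a median of -0.26. In Reloading 11 of them were higher and 0 lower than in Unloading, with 18.5% of all tested genes called higher. The summed level of these macrophage and dendritic cell markers was 96.5 to 117 CPM in Control, 98.2 to 101 in Unloading and 187 to 212 in Reloading. A large part of that rise was Cd68, at 3.59 and 2.51 CPM in Unloading and 42.9, 50.4 and 44.4 in Reloading. The median log2 fold change of the 15 markers from Unloading to Reloading was 0.77. In whole muscle, fewer cells of a type and less RNA per cell cannot be told apart, and the part of these cells in the class I values was not tested. Endothelial markers, summed, were 250 to 283 CPM in Control, 247 to 257 in Unloading and 403 to 487 in Reloading. On unloading 2 of 11 were lower (Kdr and Vwf), with 5.50% of all tested genes called lower. In Reloading 10 of 11 were higher than in Unloading, with 18.5% of all tested genes called higher. T and NK cell markers were at the floor, with 1 of 16 tested, and the highest CPM of Cd8a in any library was 0.226.

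The interferon-inducible lists moved little on unloading once Control 3 was left out. Of 21 tested interferon-gamma GTPases and chemokines, 0 were called on unloading in edgeR, with a median log2 fold change of -1.17 that became -0.22 without Control 3. On reloading against Control 13 were lower and 1 higher, with 21.3% of all tested genes called lower. Without Control 3, 8 were lower and 1 higher of 19 tested, with 20.1% of all tested genes called lower. F830016B08Rik, Gbp6 and Gbp10 had the largest falls there, at -3.54 ± 0.47, -2.72 ± 0.66 and -2.54 ± 0.60 (adjusted p = 2.41e-05, 0.00381 and 0.00296). Without Control 3 these became -2.92 ± 0.28, -1.54 ± 0.31 and -1.61 ± 0.36 (adjusted p = 1.63e-06, 0.00105 and 0.00255). The gene that was higher, named here after its value was seen, was Cxcl10, a T cell chemokine, which rose by 1.61 ± 0.48 (adjusted p = 0.0134). Of 29 type I interferon genes 3 fell on unloading (Ifit3b, Irf7 and Ifi27l2a), with 5.50% of all tested genes called lower. Without Control 3 it was 1 of 26, with 3.79% of all tested genes called lower.

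**Figure D4:**
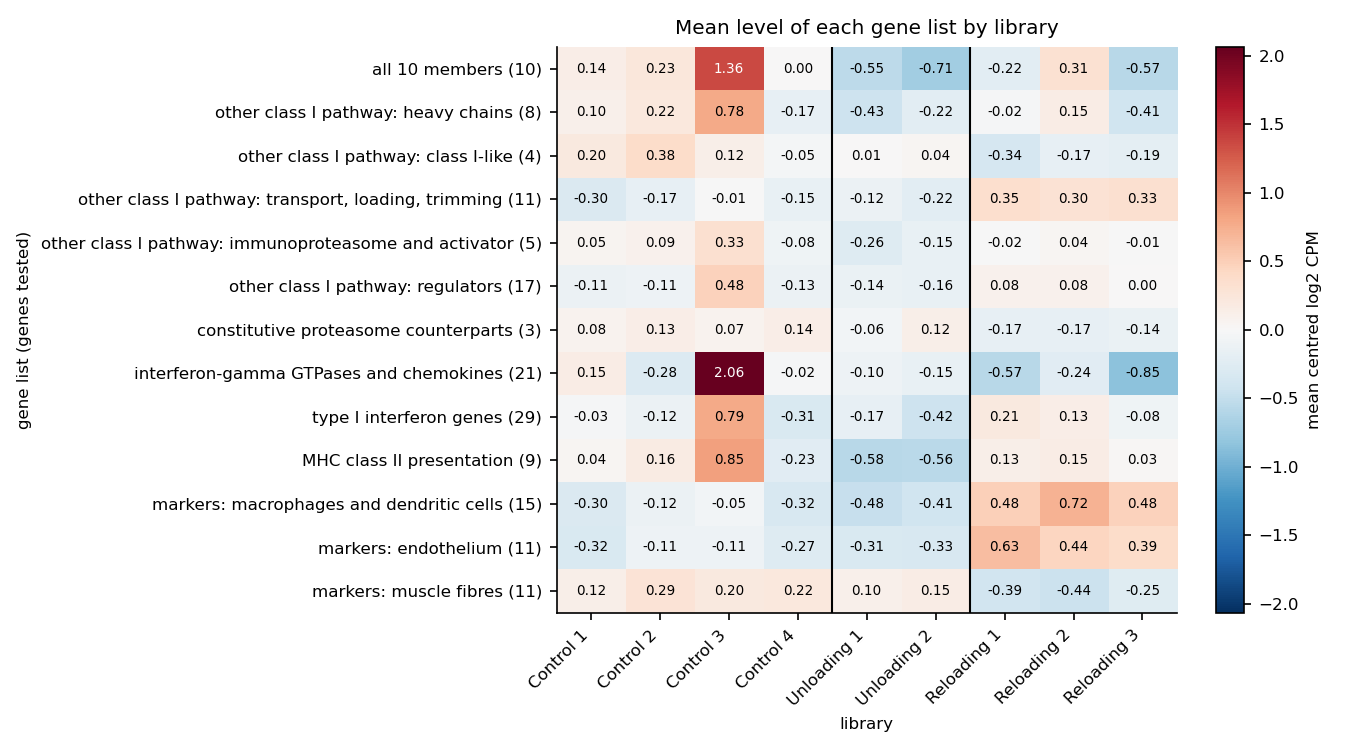
Mean centred log2 CPM of each gene list in each of the 9 libraries, with the number of tested genes in brackets and the value printed in each cell. Red is above and blue below the mean of the 9 libraries for those genes. Control 3 is at 1.36 for the 10 class I members and 2.06 for the interferon-gamma GTPases, while the macrophage and endothelial markers are high in the 3 Reloading libraries (0.39 to 0.72).

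The stretch of chromosome 17 that holds 9 of the members, chr17:33915899-35443773, also holds 55 tested genes that are in none of the lists. This region was chosen after the values were seen. On unloading 0 of the 55 were lower and 1 higher in edgeR, with 7 lower at an unadjusted p under 0.05, 0 lower in DESeq2 and a median log2 fold change of -0.04.

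The genes most like the members were ranked by Pearson's r with the mean centred log2 CPM of the 10. The ranking took the 9759 tested genes in no list with a mean log2 CPM of at least 2. Over all 9 libraries the first 3 were Leng1 (0.93), Ifi203 (0.91) and Rnf114 (0.91), followed by Trim12a, Apol10b, Dagla, Aifm2, Dtx3l, Gm5436 and Gm15502 (0.87 to 0.89). Without Control 3 Ifi203, Rnf114 and Dtx3l went to 0.72, 0.71 and 0.59. The first 5 over the 8 remaining libraries were Gm10284 (0.94), Oaz1-ps (0.94), Ybx1-ps2 (0.92), Ppa1 (0.91) and Leng1 (0.90). Leng1 was thus in both lists, at 7.09 to 10.5 CPM. These correlations are a description over few libraries that share their scaling.

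The labelled tissue was checked by muscle fibre markers, whose 11 genes together took 141322 to 214658 CPM in each library. Library totals were 9252443 to 19612101 read pairs in genes. Control 2 and Reloading 1 held skin transcripts, with a summed level of 8 skin markers of 301 and 138 CPM against 2.53 to 4.72 in the other 7 libraries. Leaving both out gave 4 of the 8 members called lower on unloading. That count stands without the share of all tested genes called in the same fit, so it has no background. With scaling by library totals alone, the median log2 fold change of all genes shifted by 0.24 against Control and 0.25 against Unloading in the Reloading comparisons, and 5250 genes were higher and 1090 lower against Unloading, in place of 2743 and 2819 with TMM. Against Control 6028 were higher and 1484 lower, in place of 3287 and 3169.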

How the data were processed

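The deposited table holds raw counts of read pairs per gene, which the authors made with STAR 2.7.3a on build GRCm38.p6 and featureCounts 2.0.3, unstranded, without pairs that mapped to several places or genes. The labels call the libraries paired-end, while the study's methods describe single reads. Fold changes and p-values in the authors' DESeq2 tables were not used, and only their pairing of identifiers with symbols was read.

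The members and gene lists were chosen with earlier results of these data known. Counts were filtered by filterByExpr (minimum count 10, minimum total 15) and scaled by TMM with edgeR 4.0.16 in R 4.3.3. All 9 libraries entered 1 quasi-likelihood fit with the group as its term, and p-values were adjusted by Benjamini-Hochberg over all 14851 tested genes (14736 without Control 3) at 0.05. Log2 CPM used a prior count of 2. Of 227 list symbols 5 were not matched. Named genes were the 10 members, tested genes of the class I lists, at most 4 called genes of any other list by size of change, and the most correlated genes. The fit was tested on simulated data. Alternatives were other scalings, no filter, DESeq2 1.42.0, limma-voom (limma 3.58.1), a robust fit, 2 groups only, replicate blocks and libraries left out. Same-numbered libraries correlated at -0.16 to 0.19 by titles and 0.08 to 0.21 by descriptions. No values for differently numbered libraries were set beside these, so they do not decide whether the numbers pair libraries. The main fit used no pairing. One read pair is 0.0510 to 0.108 CPM before scaling, and no 2 libraries of the same group agreed within sampling noise.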

Additional observations from a re-analysis of the deposited data

Results flagged for a closer look

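Control 3 was far from the other 3 Control libraries in 7 of the 10 genes. The gap between Control 3 and its nearest neighbour, as a share of the range of the 4 Control libraries, was 0.862 for H2-K1, 0.916 for H2-D1, 0.942 for B2m, 0.94 for Tap1, 0.843 for Tapbp, 0.945 for Psmb8 and 0.898 for Psmb9 (each above Dixon's critical value for 4 values). The mean centred log2 CPM of all 10 members gave 0.832, and that of the class I regulators 0.969. Control 3 was also lowest in the neutrophil markers (0.863), and Control 2 was highest in the skin markers (0.895). Chance flags about 1 in 20 groups, and the genes share the library, so these flags are not independent of each other. Their cause was not tested.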

How the results depend on the processing

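Of the 8 members not picked on a readout, the calls on unloading (3) became 8 with no filter on low counts and 0 in DESeq2, in the robust fit and with the replicate block by title numbers, and 0 to 4 with single libraries left out (0 without Unloading 1 or Unloading 2). Against Control on reloading (1) they became 6 with no filter, 0 in the robust fit with or without Control 3, 7 with the replicate block by description numbers, 2 without both skin-transcript libraries, and 0 to 3 with single libraries left out (0 without Reloading 3). Against Unloading (1) they became 3 with library totals only or with the 2 groups alone, 0 with DESeq2 size factors, in DESeq2, in the robust fit and with the title block, 4 with no filter, and 3 without Control 3 in DESeq2 and in the robust fit. With single libraries left out they were 0 to 3 (0 without Reloading 1 or Reloading 2). All genes called on unloading (1470) were 121 to 1518 with single libraries left out, 121 without Unloading 1 and 949 without Control 3, and 850 in DESeq2 without Control 3. On reloading against Control the log2 fold changes turned positive without Control 3 for B2m (0.081 in edgeR and in the robust fit, 0.073 in DESeq2), Tap1 (0.052, and 0.049 in DESeq2) and Psmb8 (0.066, and 0.057 in DESeq2), with ranges over single libraries left out of -0.48 to 0.081, -1.41 to 0.052 and -0.68 to 0.066. Tapbp became -0.035 and -0.0092 under the replicate block by titles and by descriptions, -0.11 without both skin-transcript libraries, and -0.068 to 0.17 with single libraries left out. Against Unloading the description block gave -0.017 for H2-K1, -0.024 for H2-Q4, -0.016 for Psmb8 and -0.14 for Psmb9. With single libraries left out H2-Q4 ranged from -0.17 to 0.49 and H2-Q6 from -0.022 to 1.27 against Unloading, both lowest without Reloading 2. The causes of these shifts were not tested. Counts of called members in this section stand without the share of all tested genes called in the same setting, so they have no background. On unloading the lowest adjusted p of the 8 was 1.81e-22 in edgeR without the filter, against 0.0279 in the main fit. Against Control on reloading it was 3.29e-06 with the description block, against 0.00988. The 8 and 7 calls of these fits are therefore not read as results about the members. DESeq2 without Control 3 and the robust fit without Control 3 were added after seeing the data, and DESeq2 without Control 3 gave no adjusted p for 1 of the 8. The 2 Unloading libraries limit every comparison with them, and the low counts of Tap1, Psmb8, Psmb9 and H2-Q7 limit small differences.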
